A study of Mus musculus with 3 samples.

Results

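The TRAJ genes are the joining segments of the T cell receptor α chain (TRA). Their use was read from the productive TRA contigs of T cells in inflamed sciatic nerves, taking every J gene whose name starts with TRAJ and ordering the genes by number. Of the 60 TRAJ genes that the GENCODE M21 annotation lists in the mouse reference, 42 occurred in a productive TRA, and 41 of these occurred in all 3 libraries. Of the other listed genes, 9 are annotated as pseudogenes. A further 9 are not, of which 7 had no TRA contig at all, and TRAJ35 and TRAJ25 occurred only in nonproductive contigs.

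The cells were CD45+ cells sorted from the sciatic nerves of neuropathic NOD.AireGW/+ mice, a nonobese diabetic strain with 1 altered copy of Aire, a gene needed for the thymic removal of self-reactive T cells. Droplet-based scTCR-Seq was done on 3 libraries of this condition alone. Replicates 1 and 2 came from 1 mouse each, whereas cells of 2 mice were combined for replicate 3 and could not be told apart. No control mice were part of the comparison. The label gives the sorted cells as immune cells, and because only receptor contigs were analysed here, it could not be checked against marker genes. Only cells with a TRA or TRB contig could be counted, not all sorted cells. Of these, 1989 of 2374 in replicate 1 had a productive TRA. In replicates 2 and 3, 2819 of 3555 and 461 of 705 had one. The median TRA contig had 5, 3 and 3 unique molecular identifiers (UMIs). A rearrangement was a distinct combination of TRAV gene, nucleotide CDR3 and TRAJ gene within a library, counted once however many cells carried it. There were 1231, 1700 and 394 of them. A clone with 2 productive TRAs gives 2 rearrangements, and clones that share a TRA give 1. The CDR3 is the loop that spans the V to J join. Replicates 1 and 2 shared 7 cell barcodes and replicates 2 and 3 shared 3, in no case with the same TRA.

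The α chain locus lies on chromosome 14, with the TRAV genes first, then the TRAJ genes in falling number, then the constant gene TRAC. In a developing T cell, recombination joins a TRAV to a TRAJ and deletes what lies between them. It begins with TRAJ genes near the TRAV genes, and the same chromosome can recombine again, joining a more distant TRAV to a TRAJ nearer TRAC. Both copies of the locus recombine in the same cell, which is why T cells can carry a pair of TRA rearrangements.

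In GRCm38 (mm10), the genes used here ran from TRAJ58 at chr14:54157280-54157342, 63.2 kb before TRAC, to TRAJ2 at chr14:54217836-54217901, 2.69 kb before TRAC, all on the plus strand. The TRAJ number fell at every step along the chromosome. The most used segment (TRAJ40), the segments with the shortest and the longest mean CDR3 (TRAJ31 and TRAJ2), those of the invariant natural killer T (iNKT) and mucosal-associated invariant T (MAIT) cell receptors (TRAJ18 and TRAJ33), that of the largest rearrangement of replicate 2 (TRAJ34) and TRAJ35 are shown from the reference, with the bases that fall inside the CDR3 in capitals.
TRAJ40, chr14:54177921-54177981: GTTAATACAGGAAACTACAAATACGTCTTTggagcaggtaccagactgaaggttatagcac
TRAJ31, chr14:54187895-54187951: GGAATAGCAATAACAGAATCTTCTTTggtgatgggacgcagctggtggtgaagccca
TRAJ2, chr14:54217836-54217901: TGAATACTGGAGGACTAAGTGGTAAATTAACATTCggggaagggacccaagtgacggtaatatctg
TRAJ18, chr14:54200777-54200842: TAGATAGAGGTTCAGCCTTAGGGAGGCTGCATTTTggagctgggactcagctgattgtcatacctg
TRAJ33, chr14:54185358-54185414: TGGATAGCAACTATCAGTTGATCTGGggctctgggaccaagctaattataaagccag
TRAJ34, chr14:54184699-54184756: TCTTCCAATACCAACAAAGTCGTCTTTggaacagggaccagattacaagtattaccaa
TRAJ35, chr14:54183774-54183838: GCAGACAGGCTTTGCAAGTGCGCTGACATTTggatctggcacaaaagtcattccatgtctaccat

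Use was spread over the whole cluster but was lowest at the TRAC end. Genes numbered 41 and above, the 13 nearest the TRAV genes, had 35.5%, 32.9% and 32.2% of the rearrangements of the 3 libraries (33.6% ± 1.72, SD, n = 3). The 16 genes numbered 21 to 40 had 46.5% ± 1.53, and the 13 genes numbered 20 and below had 20.0% ± 0.201. Per gene this came to 2.58%, 2.90% and 1.54% of rearrangements, where an even use of 42 genes would be 2.38%. The ranges of the 3 groups did not overlap between libraries.

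The 5 most used genes were TRAJ40, TRAJ31, TRAJ48, TRAJ23 and TRAJ49. TRAJ40 had 4.96%, 4.06% and 6.09% of rearrangements in replicates 1, 2 and 3. TRAJ31 had 4.79%, 4.53% and 4.82%, and TRAJ48 had 4.31%, 3.29% and 6.09%. These ranges overlap, so the order among them is not settled. TRAJ23 had 4.31%, 5.59% and 3.55%, and was the most used gene of replicate 2. TRAJ49 had 4.79%, 4.12% and 2.28%.

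At the other end were TRAJ2, TRAJ5, TRAJ28, TRAJ6 and TRAJ38. TRAJ2, the used gene nearest TRAC, had 3 and 7 rearrangements in replicates 1 and 2 and none of 394 in replicate 3, which allows a share of up to 0.761%. TRAJ5 had 7, 5 and 1 rearrangements and TRAJ6 had 12, 15 and 1. Both also lie near TRAC, 6.74 and 7.83 kb before it. TRAJ28 and TRAJ38 are the exceptions to this position, since both lie in the middle of the cluster: TRAJ28 had 0.569%, 0.529% and 0.508% of rearrangements and TRAJ38 had 1.38%, 0.706% and 0.508%. Over the 42 genes, shares correlated between replicates 1 and 2 with r = 0.86, between 1 and 3 with r = 0.77 and between 2 and 3 with r = 0.78. These correlations are across genes, which are not independent replicates.

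**Figure D1:**
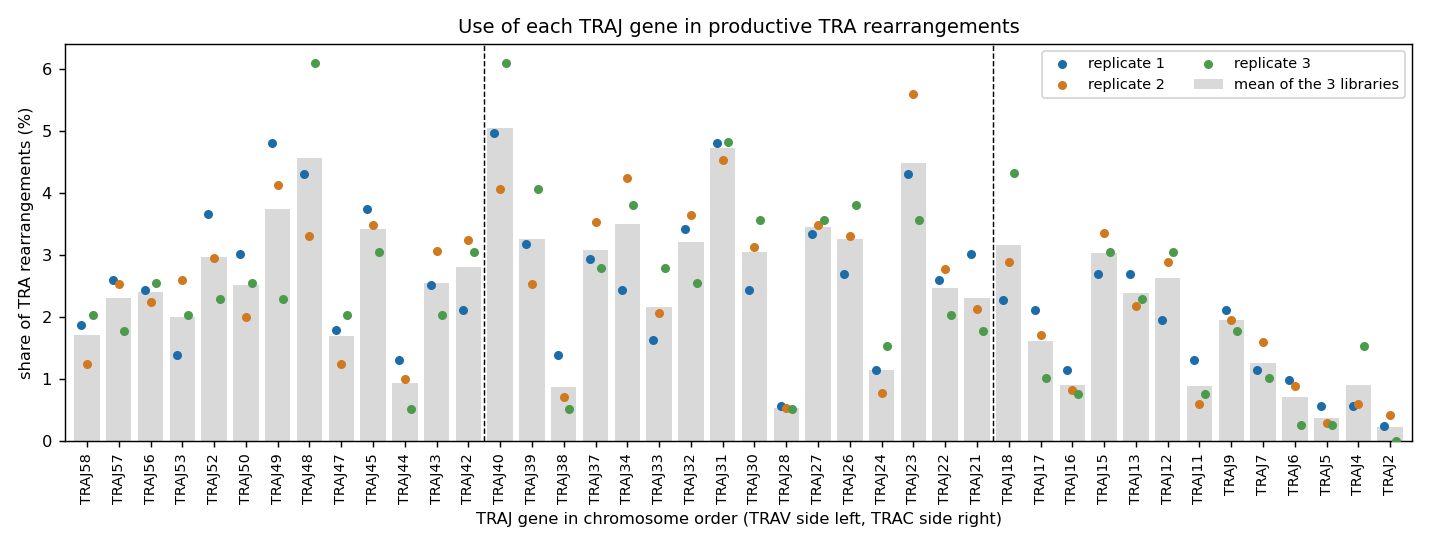
Share of productive TRA rearrangements in percent (y axis) for each of the 42 TRAJ genes in chromosome order (x axis). Bars are means of the 3 libraries, dots are the libraries, and dashed lines separate numbers 41 and above, 21 to 40 and 20 and below. TRAJ40, TRAJ31, TRAJ48 and TRAJ23 stand highest, and the genes at the TRAC end are low.

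Several TRAJ segments of these mice differed in sequence from the reference genome, which is that of C57BL/6J. In the CDR3 part there were 6 single-base differences in 5 genes, each in all rearrangements in which the position could be read, in all 3 libraries. Positions are counted from 1 at the 5′ end of the segment, with the reference base first. TRAJ31 had G7A in 66 of 66 rearrangements, TRAJ32 had A12G in 113 of 113, and TRAJ34 had A13G in 113 of 113. TRAJ37 had C14T and G15A, both in 107 of 107, and TRAJ45 had A10G in 106 of 106. In each of the 5 genes a difference altered the encoded amino acid. The difference of TRAJ34 lies inside the capitals of the segment printed above, and in the receptor of the largest rearrangement of replicate 2 printed below.

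The sequence after the CDR3 was given for replicates 2 and 3 only, and there 13 more differences were found in 10 genes. TRAJ32 had T40C and G44C in all 72 rearrangements read, TRAJ34 had A51C and T53C in all 87, and TRAJ37 had A32G in all 71. TRAJ43 had T45A in all 60, TRAJ9 had T43C in all 40 and TRAJ17 had C38T in all 33. TRAJ44 had G34A in all 19, TRAJ16 had C33T in all 17, TRAJ11 had G43A in all 13, and TRAJ5 had G37C and G40T in all 6. With both stretches, 12 of the 42 genes differed from the reference. Whether these are alleles of the NOD strain was not tested, since no NOD genome was used here.

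The length of the CDR3 followed the TRAJ segment. Mean CDR3 length over rearrangements, counting the conserved residue at each end, was 13.6 amino acids in each library (13.6 ± 0.0213, SD, n = 3). By gene it ran from 12.002 to 15.7 amino acids. TRAJ31, with 26 reference bases inside the CDR3, had the shortest mean at 12.1, 11.9 and 11.9 amino acids in the 3 libraries. TRAJ43 (12.3 ± 0.192) and TRAJ33 (12.5 ± 0.384), also with 26 bases, came next. The longest means were those of TRAJ2 (35 bases), at 16 and 15.4 amino acids in the libraries that had it, TRAJ28 (34 bases), at 15.2 ± 0.651, and TRAJ32 (35 bases), at 15.1 ± 0.184. TRAJ2 and TRAJ28 rest on 10 and 18 rearrangements. The same split was seen in the most used genes, since TRAJ31 stood at 12.002 ± 0.117 amino acids while TRAJ23 stood at 13.5 ± 0.0702.

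Across genes, mean length correlated with the number of reference bases with r = 0.88 in replicate 1, 0.90 in replicate 2 and 0.70 in replicate 3, given as a description over 42, 42 and 41 genes. The fitted slope was 0.744, 0.779 and 0.759 CDR3 bases for each base of segment. Part of the segment is trimmed before joining. A mean of 3.37 ± 0.0356 bases (SD, n = 3) was missing from the 5′ end of the segment, and the median by gene ran from 0 to 5.5 bases. Position in the cluster showed no such order. Mean length was 13.9 ± 0.1004 amino acids for numbers 41 and above, 13.3 ± 0.0412 for 21 to 40 and 13.6 ± 0.0684 for 20 and below, so that the middle group was shortest in every library.

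**Figure D2:**
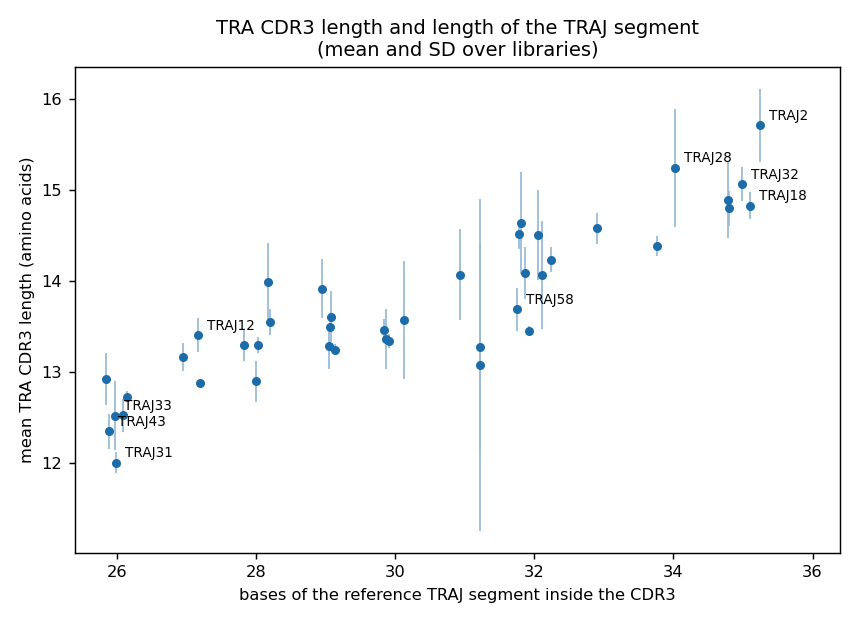
Mean TRA CDR3 length in amino acids (y axis) against the number of bases of the reference TRAJ segment inside the CDR3 (x axis) for the 42 TRAJ genes. Dots are means over libraries, bars are 1 SD, and dots are shifted slightly sideways to part genes of equal length. TRAJ31 is lowest and TRAJ2 highest, and bars are long for genes with few rearrangements.

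The TRAJ number also differed with the TRAV gene it was joined to, unevenly along the locus. The 68 TRAV genes seen here were ordered by reference position and split into those far from, midway to and near the TRAJ cluster. The mean TRAJ number with far TRAV genes was 30.6, 31.4 and 31.8 in replicates 1, 2 and 3. With near TRAV genes it was 35.6, 33.7 and 34.0, higher in all 3 libraries, and with midway genes 33.9 ± 0.427. Genes numbered 41 and above made up 27.6% ± 2.03 of the rearrangements of far TRAV genes and 36.6% ± 3.73 of those of near ones. The rank correlation of TRAV position with TRAJ number was weak, with Spearman's rho of 0.18, 0.11 and 0.10 over 1231, 1700 and 394 rearrangements of shared source. Leaving out TRAV1, TRAV2, TRAV17, TRAV19 and TRAV21-DV12, the ends of the TRAV cluster, lowered it to 0.10, 0.045 and 0.020.

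Gene by gene, no TRAJ passed the test between near and far TRAV genes. With edgeR's quasi-likelihood test and library as a block, 0 of 41 TRAJ genes (0.0%) had an adjusted p under 0.05, 5 had an unadjusted p under 0.05, and DESeq2 called 0 as well. The smallest adjusted p was that of TRAJ50 (0.131 by edgeR), named after its values were seen. It had 4.49%, 2.37% and 2.94% of the rearrangements of near TRAV genes and 1.08%, 0.830% and 2.56% of those of far ones. Of the 13 genes numbered 41 and above, 11 had a fitted value higher with near TRAV genes (median log2 difference 0.52), against 5 of 12 numbered 20 and below (median -0.34) and 21 of 41 over all (median 0.02). When TRAV genes were instead split by family number, families 17 and up against families 1 to 5, TRAJ58 (log2 difference 3.86 ± 0.62, SE; edgeR adjusted p = 1.99e-05) and TRAJ57 (3.72 ± 0.74; adjusted p = 6.31e-05) were called, the former being the used TRAJ nearest the TRAV genes. Under the other settings their edgeR and DESeq2 adjusted p ranged up to 0.947 and 0.938. The split by family is not a split by position. Families 17 and up hold only TRAV17, TRAV19 and TRAV21-DV12, with 31, 7 and 103 rearrangements. Families 1 to 5 include TRAV4-3 and TRAV5-4, which lie near the TRAJ cluster.

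The nearest TRAV gene had the highest mean TRAJ number of all with at least 10 rearrangements, and the farthest was among the low ones. TRAV21-DV12, the TRAV nearest the TRAJ genes (rank 68 of 68), had a mean TRAJ number of 48.9, 47.2 and 47.3 in the 3 libraries. Of its 103 rearrangements, 81 used a TRAJ numbered 41 or above and 1 used a TRAJ numbered 20 or below. TRAV1, at the far end, had means of 24.5, 26.1 and 23.3, with 2 of 42 rearrangements in numbers 41 and above and 10 in numbers 20 and below. Thus the range of TRAV21-DV12 did not overlap that of TRAV1. TRAV17 (31 rearrangements) and TRAV19 (7), next to TRAV21-DV12, had mean numbers of 41.9 and 46.9 over all rearrangements, and TRAV2 (10), next to TRAV1, had 26.9.

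To see which TRAV genes differed, their use among rearrangements with TRAJ 41 and above was set against that with TRAJ 20 and below, a comparison added after the mean numbers above were seen. By edgeR, 14 of 51 TRAV genes tested (27.5%) passed an adjusted p of 0.05, 6 higher (11.8%) and 8 lower (15.7%) with TRAJ 41 and above. DESeq2, which also scales the libraries differently, called 7 higher and none lower, and all 14 genes kept their sign there, with log2 values from -3.41 to -0.58 for the 8 lower ones. Without replicate 1 there was 1 call, without replicate 2 there were 2 and without replicate 3 there were 6. TRAV21-DV12 was the only gene called in each of these 3 fits (log2 4.67 to 7.09; edgeR adjusted p 0.00111 to 0.0214).

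TRAV21-DV12 had the largest difference (log2 5.23 ± 0.71, SE; adjusted p = 2.36e-09). With the libraries pooled, its share was 81 of 1124 rearrangements against 1 of 664, a ratio of 47.9 with a counting interval from 8.35 to 1913. The interval covers counting error only, not the spread between mice. TRAV5-4, the TRAV with the most such rearrangements, had 36, 58 and 12 with TRAJ 41 and above against 4, 5 and 0 with TRAJ 20 and below (log2 2.77 ± 0.50; adjusted p = 6.90e-06). Its edgeR adjusted p was 0.209 without replicate 1 and 0.0740 without replicate 3, at log2 values of 3.07 and 2.60. Both genes lie in the near part of the cluster, and so does TRAV13-4-DV7 (log2 2.02 ± 0.57; adjusted p = 0.00388). The other 3 higher genes do not. TRAV8D-2 and TRAV14D-3-DV8 lie midway (log2 2.03 ± 0.45 and 3.31 ± 1.22) and TRAV3-1 is rank 3 from the far end (log2 1.57 ± 0.51; adjusted p = 0.0137).

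The lower genes were as scattered, with 3 far, 3 midway and 2 near. TRAV1 is the gene at the far end (adjusted p = 0.00647). TRAV12D-2 (23 rearrangements with TRAJ 41 and above against 38 with 20 and below) and TRAV13-1 (34 against 43) had the most counts behind them. TRAV12D-2 had 2.06% against 7.41% in replicate 1 and 2.14% against 5.56% in replicate 2. In replicate 3 it went the other way, with 1.57% against 1.27%. TRAV9N-4 had 2 against 20, a pooled ratio of 16.9 in favour of TRAJ 20 and below. Its counting interval, from 4.11 to 149, also leaves out the spread between mice. TRAV9-4, rank 60 of 68, had 1 against 9. The others, TRAV7-1, TRAV6-3 and TRAV7-3, had 3 each against 9, 10 and 11. TRAV5D-4, a copy of TRAV5-4 that the reference places midway and that was chosen after its values were seen, had a mean TRAJ number of 27.6 over 75 rearrangements, where TRAV5-4 had 39.6 over 203. Many TRAV genes have near-identical D and N copies, so reads could be split among their names. Whether their order in NOD mice is that of the reference was not tested.

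**Figure D3:**
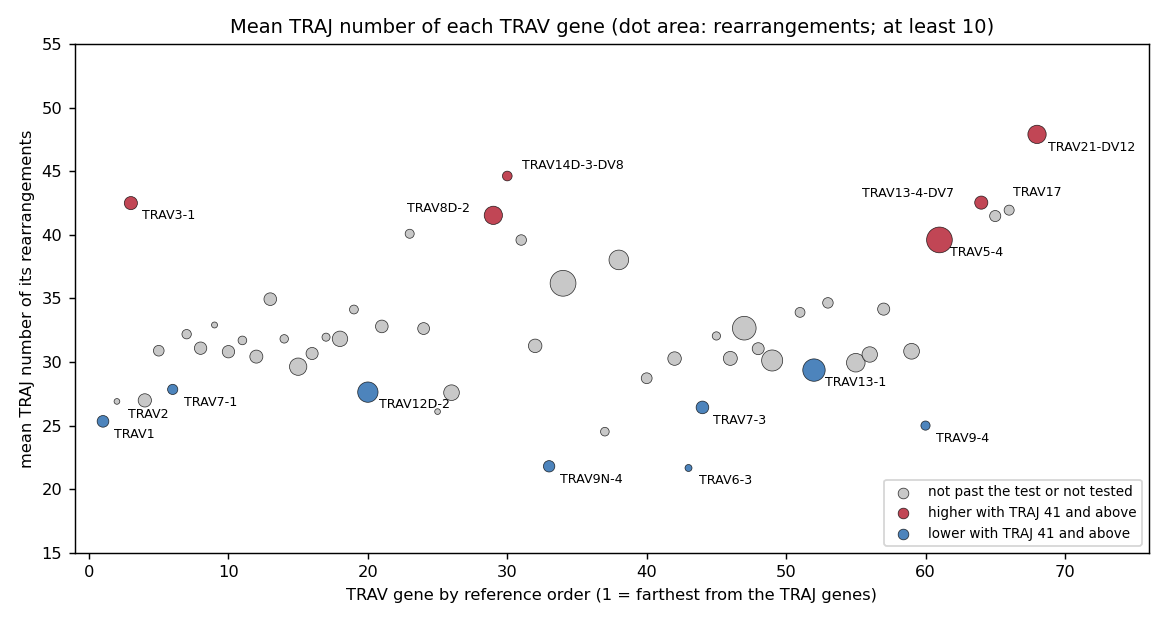
Mean TRAJ number (y axis) of each TRAV gene with at least 10 rearrangements, placed by its order in the reference (x axis, 1 farthest from the TRAJ genes, 68 nearest). Dot area is the number of rearrangements, and colours give genes past the edgeR test for higher (red) or lower (blue) use with TRAJ 41 and above. TRAV21-DV12 is highest at 47.9 and TRAV1 starts the axis at 25.3, with high and low genes between them.

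The 42 TRAJ and 68 TRAV genes met in 1373 of 2856 possible pairs. The most frequent was TRAV9-1 with TRAJ12, found in 6, 12 and 1 rearrangements. TRAV21-DV12 with TRAJ57 followed, with 5, 9 and 4, and made up 18 of the 103 rearrangements of that TRAV. The next 3 were all pairs of TRAV5-4, with TRAJ31, TRAJ43 and TRAJ45, each in 15 rearrangements over the libraries.

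The chains of a single T cell lay close together in the TRAJ cluster. A pair of productive TRAs was found in 194, 262 and 20 cells (9.75%, 9.29% and 4.34% of cells with a TRA), which made 170, 200 and 16 distinct pairs. Their TRAJ numbers differed by a median of 8, 9.5 and 3, where all pairs of rearrangements of a library differed by 15, 14 and 14. In 62.4%, 54.5% and 81.2% of pairs the numbers lay within 10 of each other, against 38.2%, 38.4% and 39.1% of all pairs. Spearman's rho between the TRAJ numbers of a pair, each counted in both orders, was 0.45, 0.20 and 0.70. The pairs came from all parts of the cluster.

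Cells with more than 1 TRB, which a droplet with more than 1 cell would also give, were set apart. In cells with exactly 1 TRB the median difference was 8, 8 and 3 and rho rose to 0.57, 0.44 and 0.89 over 129, 132 and 15 pairs. In cells with more than 1 TRB it was 12 and 15.5 in replicates 1 and 2, with rho of 0.13 and -0.16 over 41 and 68 pairs, and replicate 3 had 1 such pair. The closeness was thus found in the cells with 1 TRB. The same TRAJ was used by both chains in 17, 5 and 3 pairs, 10.0%, 2.50% and 18.8%, against 2.90%, 3.02% and 3.01% of all pairs of rearrangements. Without these pairs the median difference was 9, 10 and 5.

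Joins that Cell Ranger marked nonproductive were close to the productive TRA of the same cell too. The mark covers contigs out of frame or with a stop codon and also contigs not marked full length. In cells with 1 productive and 1 nonproductive TRA contig of another V or J gene, the TRAJ numbers differed by a median of 7 in each of the 3 libraries, over 323, 324 and 65 distinct pairs. In 68.4%, 67.9% and 72.3% of these pairs the numbers lay within 10 of each other. Pairs with the same TRAJ under another TRAV name are included, so a join read under the name of a near-identical TRAV copy would count as close. No share over all pairs of such joins was taken for comparison. These values were alike in the libraries, unlike those of productive pairs. The TRAV ranks of a productive pair correlated with rho of 0.11, -0.0057 and -0.45 in replicates 1, 2 and 3, the last over 16 pairs.

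**Figure D4:**
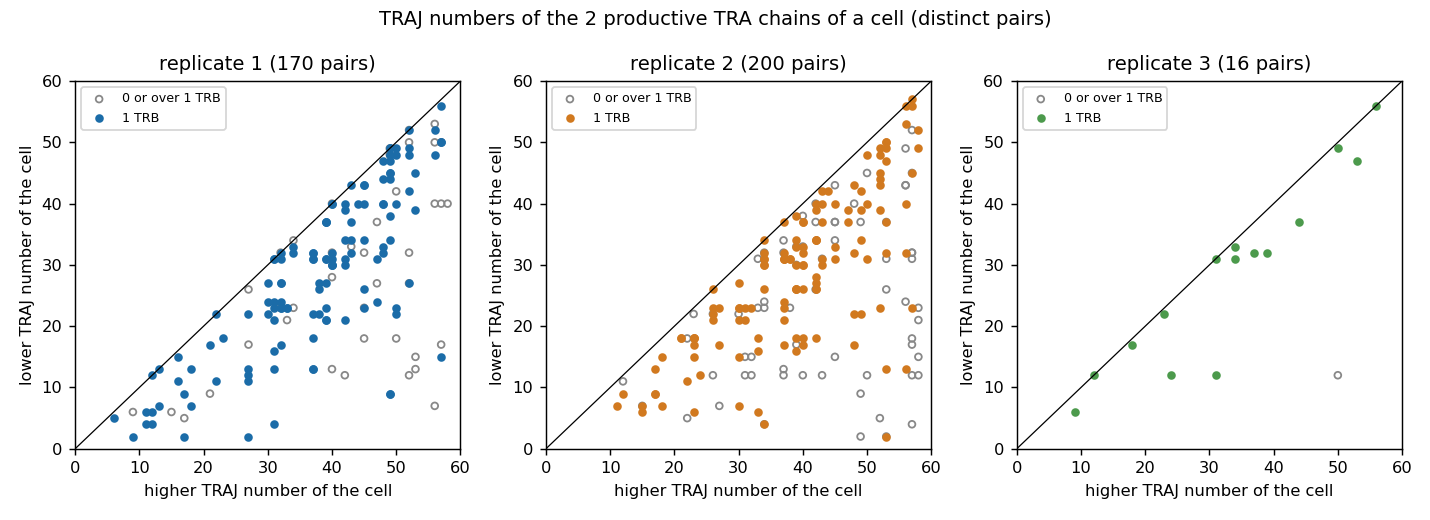
TRAJ numbers of the chains of cells with 2 productive TRAs, the higher on the x axis and the lower on the y axis, in 1 panel per library. Each dot is a distinct pair, filled where the cell had exactly 1 TRB, and the line marks equal numbers. Filled dots of replicates 1 and 2 gather along the line over its whole length, while open dots are scattered below it.

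The share of expanded rearrangements is given for the same 3 groups of TRAJ genes. A rearrangement was called expanded when found in more than 1 cell, which held for 267, 398 and 56 rearrangements. In replicate 1, 22.2% (exact Clopper-Pearson 95% interval 18.4% to 26.4%) of rearrangements with TRAJ 41 and above were expanded, 20.9% (17.6% to 24.5%) with 21 to 40 and 22.6% (17.5% to 28.4%) with 20 and below. Replicate 2 had 23.9% (20.5% to 27.7%), 22.6% (19.7% to 25.6%) and 24.6% (20.1% to 29.5%). Replicate 3 had 8.66% (4.40% to 14.97%), 17.02% (11.9% to 23.2%) and 16.5% (9.06% to 26.5%). The order of the groups differed between libraries, and in replicate 3 numbers 41 and above had the lowest share. The intervals cover counting error only, and no test was run between the 3 groups.

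By edgeR, 0 of 42 TRAJ genes (0.0%) differed in use between expanded and single-cell rearrangements at an adjusted p of 0.05. At an unadjusted p under 0.05 there were 2, TRAJ23 and TRAJ56, and by DESeq2 there were 0 at either level. TRAJ23 had 6.37%, 7.29% and 7.14% of expanded rearrangements and 3.73%, 5.07% and 2.96% of those in single cells, higher in 3 of 3 libraries, with an edgeR adjusted p of 0.862. Of the 162 rearrangements of TRAJ23 in the pooled libraries, 50 were expanded (30.9%), with 17 of 53, 29 of 95 and 4 of 14 by replicate. Over all TRAJ genes, 21.7%, 23.4% and 14.2% of rearrangements were expanded in replicates 1, 2 and 3. Pooled shares near that of TRAJ23 were found for TRAJ28 (33.3% of 18), TRAJ53 (29.0% of 69) and TRAJ6 (28.6% of 28). CDR3 length differed between expanded and single-cell rearrangements by 0.0056, 0.056 and -0.50 amino acids in replicates 1, 2 and 3, with no common direction.

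Single large clones moved the share of a TRAJ gene among cells. In replicate 1, TRAJ16 was in 1.14% of rearrangements but in 12.8% of the TRA chains counted by cell, since 1 rearrangement with TRAV12D-2 held 266 of its 280 cells. In replicates 2 and 3, TRAJ16 held 0.487% and 0.624% of chains. The largest rearrangement of replicate 2 joined TRAV3-3 to TRAJ34 in 53 cells, and TRAJ34 had 4.24% of rearrangements and 5.97% of chains there. In replicate 3 the only TRAJ6 rearrangement, with TRAV13-1, held 12 cells, so that TRAJ6 rose from 0.254% to 2.49%. The nucleotide CDR3s of these receptors are printed 5′ to 3′ with the bases that match the TRAJ segment in capitals.
TRAV12D-2 with TRAJ16, replicate 1: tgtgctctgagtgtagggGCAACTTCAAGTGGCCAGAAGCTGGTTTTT
TRAV3-3 with TRAJ34, replicate 2: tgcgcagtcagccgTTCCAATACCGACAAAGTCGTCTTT
TRAV13-1 with TRAJ6, replicate 3: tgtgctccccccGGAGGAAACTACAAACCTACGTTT
The TRAJ16 segment was complete, the TRAJ34 segment lacked 2 bases and the TRAJ6 segment lacked 7. Counted by cell, numbers 20 and below had 28.5%, 19.2% and 22.0% of chains. Without the largest rearrangement of each library they had 18.6%, 19.5% and 20.0%.

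**Figure D5:**
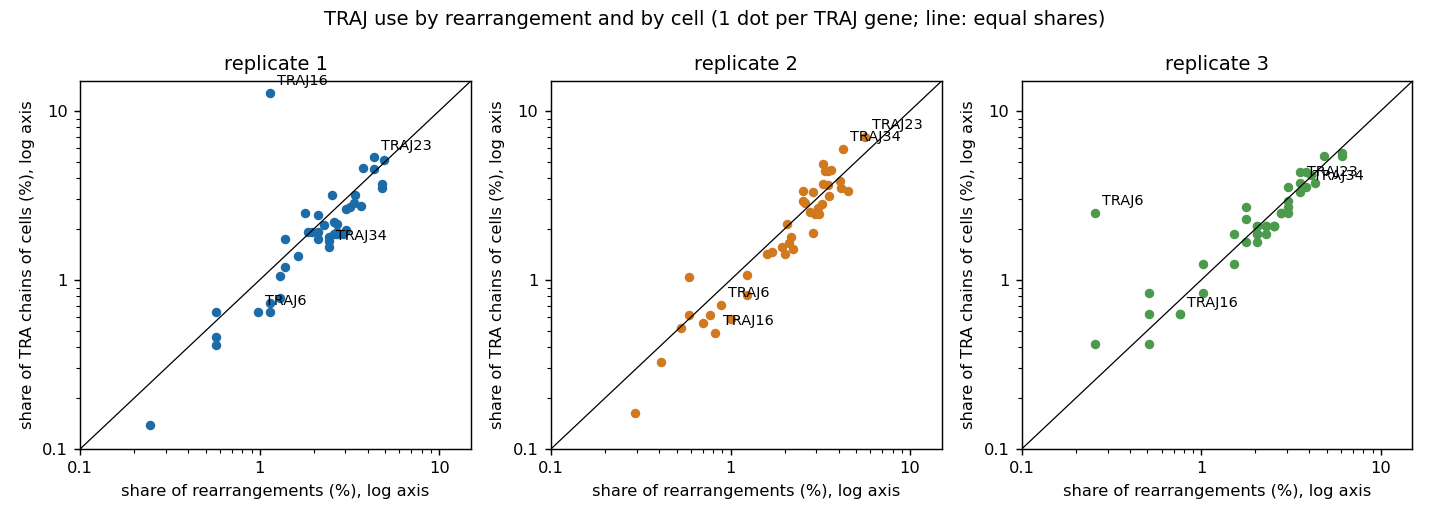
Share of each TRAJ gene among TRA chains counted by cell (y axis, percent, log axis) against its share of rearrangements (x axis, percent, log axis), in 1 panel per library with 1 dot per TRAJ gene. The line marks equal shares. TRAJ16 of replicate 1 stands far above the line at 12.8% and TRAJ6 of replicate 3 at 2.49%.

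TRAJ18 and TRAJ33 serve the invariant receptors of unconventional T cells. Joined to TRAV11, TRAJ18 makes the iNKT α chain, which sees lipid antigens on CD1d. Joined to TRAV1, TRAJ33 makes the MAIT α chain, which sees vitamin B metabolites on MR1. TRAJ18 was in 28, 49 and 17 rearrangements, of which 1, 3 and 1 used TRAV11, in 1, 5 and 1 cells. TRAJ33 was in 20, 35 and 11 rearrangements, of which 1, 3 and 1 used TRAV1, in 1, 15 and 1 cells. Most use of both segments therefore lay outside the invariant pairs. Of the 15 MAIT-type cells of replicate 2, 13 shared 1 nucleotide CDR3, which occurred in all 3 libraries. An iNKT-type CDR3 was identical in replicates 1 and 2. Both are printed with the TRAJ bases in capitals.
TRAV1 with TRAJ33, replicates 1, 2 and 3: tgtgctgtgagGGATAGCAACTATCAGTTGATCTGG
TRAV11 with TRAJ18, replicates 1 and 2: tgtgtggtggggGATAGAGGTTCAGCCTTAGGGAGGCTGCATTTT

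TRAJ35 was seen in many cells but never in a contig marked productive. None of its 287 contigs, in cells or not, was marked full length, which Cell Ranger requires of a productive contig, so the marking itself fixes its absence from productive rearrangements. Nonproductive TRA contigs of called cells gave 432, 500 and 118 distinct joins, of which 27, 44 and 12 used TRAJ35 (6.25%, 8.80% and 10.2%). Only 447 of the 1050 joins had a nucleotide CDR3. The others were counted once per clonotype, TRAV and TRAJ, so their unit is not that of productive rearrangements. Among productive rearrangements TRAJ35 was in 0 of 3325. Because the marking fixes this count, it sets no bound on how often TRAJ35 is used. TRAJ35 was also the only edgeR call between productive and nonproductive TRA among 43 TRAJ genes (1 lower, 2.33%), and nothing is read from it. With TRAJ35 left out, edgeR called 0 of 42 genes at an adjusted p of 0.05, and 3 had an unadjusted p under 0.05. DESeq2 on all 43 genes called only TRAJ35.

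Among other nonproductive joins 760 of 967 were full length (78.6%). Of the 83 TRAJ35 joins, 77 had a CDR3 without a stop codon that kept the reading frame of the segment, and they occurred in 124 cells. No productive TRA was found in 59.4%, 54.4% and 61.5% of these cells, against 22.3%, 25.2% and 40.5% of cells with a nonproductive contig of another TRAJ. The latter were not limited to joins that kept the frame, so the sets differ in frame as well as in TRAJ. The TRAJ35 segment printed above has 34 bases after the CDR3. TRAJ49 has the same number, and the other 41 segments listed here have 31. Why these contigs were not marked full length was not tested.

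Apart from TRAJ35, nonproductive joins were spread over the cluster as follows. Numbers 41 and above had 31.4% ± 1.18 of them, 21 to 40 had 45.8% ± 3.26 and 20 and below had 22.8% ± 4.30 (SD, n = 3). Numbers 20 and below had 22.2%, 27.4% and 18.9% of nonproductive joins and 19.7%, 20.1% and 20.1% of productive rearrangements in replicates 1, 2 and 3, higher among nonproductive joins in replicates 1 and 2 and lower in replicate 3. TRAJ23 had 4.31%, 5.59% and 3.55% of productive rearrangements and 2.08%, 2.80% and 2.54% of nonproductive joins, higher in 3 of 3 libraries, with an edgeR adjusted p of 0.254. Without replicate 3 its adjusted p was 0.0137 by edgeR, and over the other alternatives it ranged up to 0.996 (DESeq2). With only nonproductive joins that had a CDR3 it was 0.840 by edgeR. The nonproductive shares in this paragraph include joins without a CDR3, which were counted in another unit.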

How the data were processed

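Members, lists and tests were chosen with earlier results of these data known. Reads were assembled with Cell Ranger on mm10 by the authors (version not given in the sources used here), who deposited for each contig the counts of reads and UMIs, the V and J genes, the CDR3 and, as another value, its length in bases. The deposited annotation had 18 columns for replicate 1 and 31 for replicates 2 and 3. Samples were grouped by the labels as 1 condition with 3 libraries.

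Productive TRA contigs of called cells were counted as rearrangements and as cells. Gene positions came from GENCODE M21 and segments from GRCm38, the genome of C57BL/6J. A segment difference had to be in at least 90% of 5 or more rearrangements. Counts per gene were compared with edgeR 4.0.16 in R 4.3.3, by its quasi-likelihood test with library as block. Genes had at least 10 rearrangements, totals were the library sizes, and p-values had the Benjamini-Hochberg adjustment. The test was also run on counts simulated from the observed shares of these data, without added spread between libraries. P-values set the difference between classes within the 3 libraries against the variation left after the library block, estimated with all genes together. They treat rearrangements of a mouse as counts, so they are not a measure of the spread between mice alone. Correlations are descriptions. Alternatives were DESeq2 1.42.0, TMM factors, no filter, at least 3 UMIs, cells with 1 TRA, other classes, and leaving out each library. Named were the 5 most and 5 least used TRAJ, those past a test, the 3 longest and 3 shortest by CDR3, those of the largest rearrangements, TRAJ18, TRAJ33, and the 5 commonest pairs. Clonotype and consensus files were not used. Python 3.11.15, pandas 2.3.3, scipy 1.17.1 and matplotlib 3.10.9 were used.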

Additional observations from a re-analysis of the deposited data

Results flagged for a closer look

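TRAJ segments also occurred outside the TRA contigs. In called cells, 125 contigs joined a TRDV gene, a δ chain V gene, to a TRAJ, 51, 50 and 24 in replicates 1, 2 and 3, and they were looked at because the comparisons above leave them out. None was marked productive, and 124 carried TRAC. Whether the marking allows a productive call for such joins was not tested. TRDV1 was in 103 of them, and TRAJ58, the used TRAJ nearest the TRAV genes, was in 67 (51.0%, 46.0% and 75.0% by library). These are shares of contigs, in which a clone can count more than once. TRAJ58 had 1.55% ± 0.437 (SD, n = 3) of productive TRA chains counted by cell and 1.71% ± 0.420 of productive TRA rearrangements. Of the 125, 114 used a TRAJ numbered 41 or above. There were no control samples.

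The 83 nonproductive joins of TRAJ35 in called cells stand out in the same way, since the productive contigs hold none; no TRAJ35 contig was marked full length, which the productive mark requires.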

How the results depend on the processing

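The fits pair the classes compared within each library through the library block. Without this replicate block they gave 0, 0 and 1 called TRAJ genes for TRAV position, expansion and productivity, and 19 TRAV genes. TRAJ calls by TRAV position were 0 under every alternative run except the split by TRAV family number (2), where TRAJ50 reversed to -0.49. Expansion gave 0 under all alternatives run. Productivity gave 1 to 2 calls with a library left out, 0 with cells counted and 0 with TRAJ35 left out, an alternative chosen after seeing the data; in the main comparison the call was TRAJ35, whose absence from productive contigs the marking fixes. The 14 TRAV calls became 7 by DESeq2, 7 with chains of at least 3 UMIs and 1 to 6 with a library left out, and the cause was not tested. With cells counted, TRAJ 41 and above had 31.6% and 20 and below 23.3%; with at least 3 UMIs the latter had 21.1%. By cell, expanded rearrangements held 42.3%, 46.5% and 54.6% of the 3 TRAJ groups, as means over the libraries. The last group holds the TRAJ16 rearrangement of replicate 1 with 266 cells. In replicate 3, 8.66% of rearrangements with TRAJ 41 and above were expanded. Whether these shares by cell differ between the groups was not tested. The rank correlation fell to 0.056 without the ends of the TRAV cluster. Against the reference segments, 4.74 bases were lost from the TRAJ, because a differing base ends the match. Of 308 alternative values, 246 were labelled unchanged, a label that did not require the size to be kept. For log2 differences it covered values with the same direction and side of the threshold. TRAJ56 by expansion went from -0.90 to -6.55 with expansion set at over 5 cells. TRAJ2 by productivity went from -2.25 to -0.66 when only nonproductive joins with a CDR3 were used. Counts of 10 and 19 TRAV calls, against 14, were also labelled unchanged. Contigs with fewer than 3 UMIs were 19.7%, 32.2% and 43.9% of the libraries, and replicate 3 with 394 rearrangements gives the least precise shares.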
